A study of Mus musculus with 6 samples.

Results

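Mouse fallopian tube (FT) organoids carrying Pik3caH1047R with Trp53 loss were set directly against FT organoids carrying Apc580D with Trp53 loss, both in culture before they were placed under the skin of mice. They are called Pik3ca/Trp53 and Apc/Trp53 organoids here. The comparison used 2 of the 6 arrays of the series, 1 array per culture, and left out the array of organoids with Trp53 loss alone as a common baseline. A gene entered when a probe for it was called well above background in either culture, which held for 14442 of the 23787 genes named on the array. Both cultures share the loss of Trp53. They also share the serum-free medium, with Y27632 at 10 µM, CHIR-99021 at 2.5 µM, Jagged-1 at 1 µM, and EGF (50 ng/ml), Noggin (100 ng/ml) and R-spondin1 (250 ng/ml). R-spondin1 and the GSK3 inhibitor CHIR-99021 both raise Wnt signalling, so both cultures were under Wnt stimulation. Differences are given as Pik3ca/Trp53 minus Apc/Trp53. The other 4 arrays are organoids recovered from the subcutaneous lesions of each genotype (an adenocarcinoma for Pik3ca/Trp53, a cyst for Apc/Trp53), organoids with Trp53 loss alone, and Trp53flox/flox organoids carrying the empty vector pLKO.1. Each group is 1 culture on 1 array, and nothing in the labels shows how far another culture of the same genotype would differ.

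Pik3ca encodes the catalytic subunit p110-alpha of PI3-kinase, which makes the membrane lipid that recruits AKT. The H1047R change in its kinase domain raises that activity and is common in cancers of the female reproductive tract. AKT keeps FOXO transcription factors out of the nucleus and, through mTORC1, raises translation, glycolysis and lipid synthesis. Apc is the scaffold of the destruction complex that marks beta-catenin for degradation. When it is truncated, beta-catenin enters the nucleus with TCF and LEF factors and induces a set of targets, many of which are secreted or cytoplasmic inhibitors of the same pathway. In the oviduct, Wnt signalling is known for its part in maintaining the epithelial progenitors that give rise to secretory and multiciliated cells.

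Signals were read as log2 of the processed intensity minus the 75th percentile of that array, so that 0 is a signal at the 75th percentile. The 6 arrays came from a single slide and a single scan. The Pik3ca/Trp53 array stood at the edge of the set: 45.44% of its probes were well above background, against 48.08% to 50.95% on the other 5 arrays (49.93% on the Apc/Trp53 array). It also had 238 outlier spots, against 87 on the Apc/Trp53 array, and the median SD among probes printed in 10 copies was 0.0797 against 0.042 log2 units. Its lowest signal well above background was -4.24, against -4.9 on the Apc/Trp53 array. A gene below background on 1 array has only a bound, written as "at least". That bound sets the signal over the lowest signal well above background on the dim array, or over the dim probe's own signal where that is higher.

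Most genes had similar signals in both cultures, and the balance of the larger differences depended on how genes below background were treated. Of 14442 genes, 1106 were at least 2-fold higher in Pik3ca/Trp53 (7.66%) and 1058 were at least 2-fold lower (7.33%), with a median difference of -0.02 over all genes. The differences lay within 1.5-fold for 71.3% of the genes. With 1 array per group there is no replicate check, so these counts are a description by size and carry no test. Among the 13200 genes above background on both arrays, 822 were higher and 575 lower. A further 294 genes were above background in Pik3ca/Trp53 alone and 942 in Apc/Trp53 alone, of which 242 and 159 had a bound of 2-fold or more. With every gene below background set at its bound, 7.22% of all genes were higher and 4.81% lower. The plot of the signals of both cultures shows the interferon and mitosis genes on the Pik3ca/Trp53 side of the diagonal and the Wnt targets mostly on the other.

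**Figure D1:**
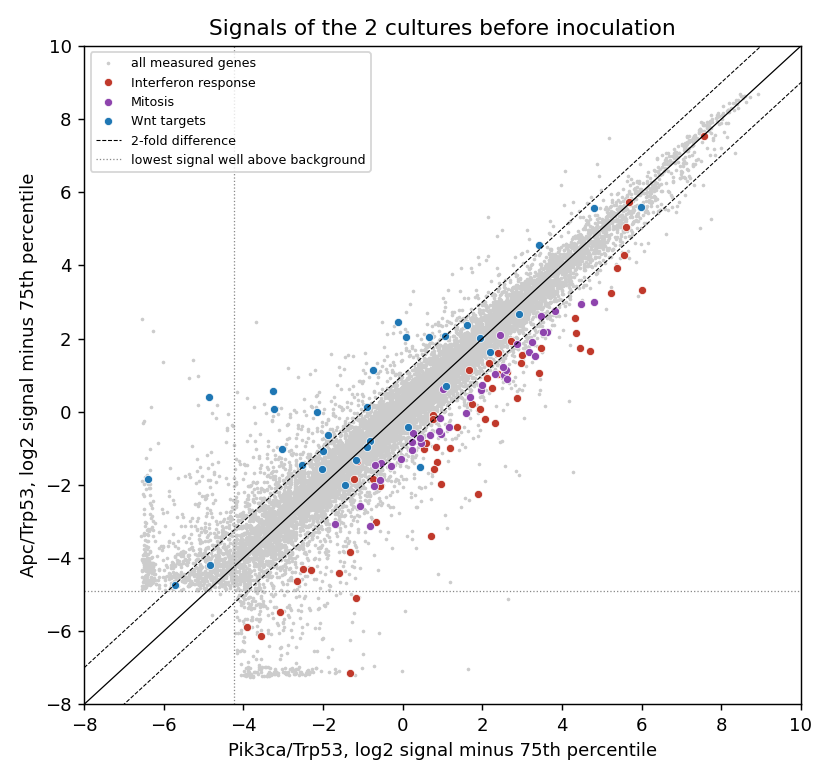
Each point is 1 of 14442 genes, with its log2 signal (relative to the array's 75th percentile) in Pik3ca/Trp53 organoids on the horizontal axis and in Apc/Trp53 organoids on the vertical axis; dashed lines mark a 2-fold difference and dotted lines the lowest signal well above background. Of the 57 interferon-response genes (red) 45 lie beyond the lower dashed line, as do 34 of the 40 mitosis genes (purple), whereas 15 of the 32 Wnt targets (blue) lie beyond the upper one.

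The probes for the altered genes gave a mixed picture. Pik3ca had a log2 signal of 1.94 in Pik3ca/Trp53 and 0.75 in Apc/Trp53, a 2.29-fold difference, against 0.96 with Trp53 loss alone and 1.55 in the control. In the lesion-derived organoids it went the other way, at -0.23 from the adenocarcinoma and 2.1 from the cyst. An array probe cannot tell the H1047R transcript from the unaltered one. Apc was near the background limit everywhere, at -4.22 (below background) in Pik3ca/Trp53 and -4.12 in Apc/Trp53, so the array does not show the Apc580D allele by its level. Trp53 was below background in Pik3ca/Trp53 (-5.09), -3.59 in Apc/Trp53, below background with Trp53 loss alone (-6.62) and 0.88 in the control. In the organoids from the adenocarcinoma, which carry the same label of Trp53 loss, it was above background at -1.64, and in those from the cyst it was below background at -6.7. Whether the Apc and Trp53 probes lie in the altered exons was not determined.

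PI3-kinase subunits were the members of the pathway with the higher signals in Pik3ca/Trp53. All 6 measured subunits were positive, 3 of them (Pik3ca, Pik3r1 and Pik3r3) past 2-fold, with a median of 0.71. Pik3r1 and Pik3r3, which encode regulatory subunits, were 2.34-fold and 2.98-fold higher (1.54 against 0.31, and 3.37 against 1.79). Pik3ip1, an inhibitor of the kinase, was 2.06-fold higher. In the lesion-derived pair, with Pik3ip1 counted, 2 of these 7 genes were 2-fold higher and 2 lower. The lower ones were Pik3ca (-2.33) and Pik3ip1 (-1.18). Of all genes measured in both stages, 13.6% were 2-fold higher in that pair and 14.1% lower. Below the kinase the transcripts were nearly level: none of the 19 measured kinases and phosphatases reached 2-fold (median -0.07), with Akt1 at -0.09 and Mtor at -0.42. Irs2, the insulin receptor adaptor that FOXO factors induce, had -2.53 in Pik3ca/Trp53 and -0.38 in Apc/Trp53 and was 4.44-fold lower.

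FOXO targets as a group were not shifted in their median (0.04). Of 34 measured, 2 were higher (5.88% beside 7.66% over all genes) and 5 lower (14.7% beside 7.33%). The 5 lower genes were all metabolic, and 4 of them stayed past 2-fold at their bound (4.81% over all genes). Klf15, a regulator of gluconeogenesis and amino acid breakdown, had -0.16 in Apc/Trp53 and was below background in Pik3ca/Trp53, at least 16.9-fold lower. Igfbp1, a secreted binding protein of insulin-like growth factors, was at least 6.43-fold lower, and Pdk4, the kinase that shuts off pyruvate dehydrogenase, at least 1.27-fold lower. Ppargc1a, the mitochondrial coactivator, was 2.41-fold lower. In the arrest and death group the 10 measured genes had a median of -0.14, and the death ligand Tnfsf10 was 2.64-fold higher.

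Wnt targets were lower in Pik3ca/Trp53, which is to say higher in Apc/Trp53. Of 32 measured targets, 15 were at least 2-fold lower (46.9% beside 7.33% over all genes) and 1 was higher, with a median of -0.96 beside -0.02 over all genes. The pathway's own inhibitors made up 8 of those 15, with none of the 13 measured inhibitors higher and a median of -1.96. Nkd1, which binds Dishevelled, had -3.26 in Pik3ca/Trp53 and 0.56 in Apc/Trp53, 14.1-fold lower. The secreted antagonist Dkk2 was below background in Pik3ca/Trp53 and 0.39 in Apc/Trp53, at least 24.8-fold lower. Wif1, which binds Wnt ligands outside the cell, had -0.13 and 2.44, and was 5.95-fold lower. Notum, the enzyme that strips the lipid from Wnt proteins, was 3.9-fold lower, the membrane inhibitor Apcdd1 3.75-fold, and Nkd2 at least 4.49-fold.

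Axin2, the scaffold most often used as a readout of the pathway, had -3.04 in Pik3ca/Trp53 and -1.02 in Apc/Trp53 and was at least 2.74-fold lower. The inhibitors Rnf43 (0.24) and Dkk3 (0.14) were nearly level, so the difference did not extend to every feedback gene. Among transcription factors, Myc was 4.38-fold lower (-2.15 against -0.02), Lef1 2.36-fold and Tcf7 2.09-fold, while Sox9 was level at -0.03 and Ascl2 stood at 0.55. Of the 7 receptors and surface proteins, Lgr5, the R-spondin receptor of progenitor cells, was 2.61-fold lower (0.66 against 2.05). Tnfrsf19, a target that went against the list, was 3.88-fold higher (0.43 against -1.52). Ccnd1, the D-type cyclin, was 2.21-fold lower, and the growth factors Fgf9 and Bmp4 were 2.01-fold and 2.06-fold lower. Smoc2, a matricellular marker of intestinal stem cells, was at least 9.31-fold lower.

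The level of Wnt machinery did not follow its targets. None of the 9 destruction complex genes reached 2-fold (median -0.03). Over the 40 measured genes 2 were higher (5% beside 7.66% over all genes) and 7 lower (17.5% beside 7.33%). The exceptions were mostly ligands and receptors. The other was the nuclear factor Tcf7l1, at least 1.3-fold lower. At their bounds Tcf7l1 and the ligand Wnt6 (at least 1.23-fold lower) went under 2-fold. Wnt7a, the ligand of Müllerian epithelium, was 5.75-fold lower (1.24 in Pik3ca/Trp53 against 3.76 in Apc/Trp53), and the receptor Fzd10 was 2.86-fold lower (3.69 against 5.21). Ror2, a receptor for noncanonical Wnt ligands, was 10.4-fold lower (-3.43 against -0.05). Wnt4 and Fzd7 went the other way, 2.12-fold and 2.16-fold higher.

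With the other cultures set beside these, the median of the Wnt targets in Apc/Trp53 stood above that of the remaining cultures before inoculation. The median level of the 32 targets was -0.86 in Pik3ca/Trp53 and 0.1 in Apc/Trp53, against -0.73 with Trp53 loss alone and -0.61 in the control. Nkd1 had -4.69 with Trp53 loss alone and -5.14 in the control. Lgr5 was less selective, at 1.23 with Trp53 loss alone. Some targets were not highest in Apc/Trp53. Ccnd1 had 4.56 there, 4.85 with Trp53 loss alone and 5.14 in the control, and Bmp4 had 0.13, 1.41 and 2.09. The 300-base windows around the start sites (250 bases before to 50 after) were searched for CTTTGAT on either strand, a core TCF/LEF sequence. It was in 4 of the 30 windows of measured Wnt targets (13.3%). Over all measured genes it was in 2.67% of windows, and in 3.73% of all 32851 promoters. The 4 windows belong to Sp5, Mmp7 and Tnfrsf19, with 1 Mmp7 site counted in 2 overlapping windows. The sequence was in 0 of the 14 windows of the 2-fold lower targets that had windows.

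**Figure D2:**
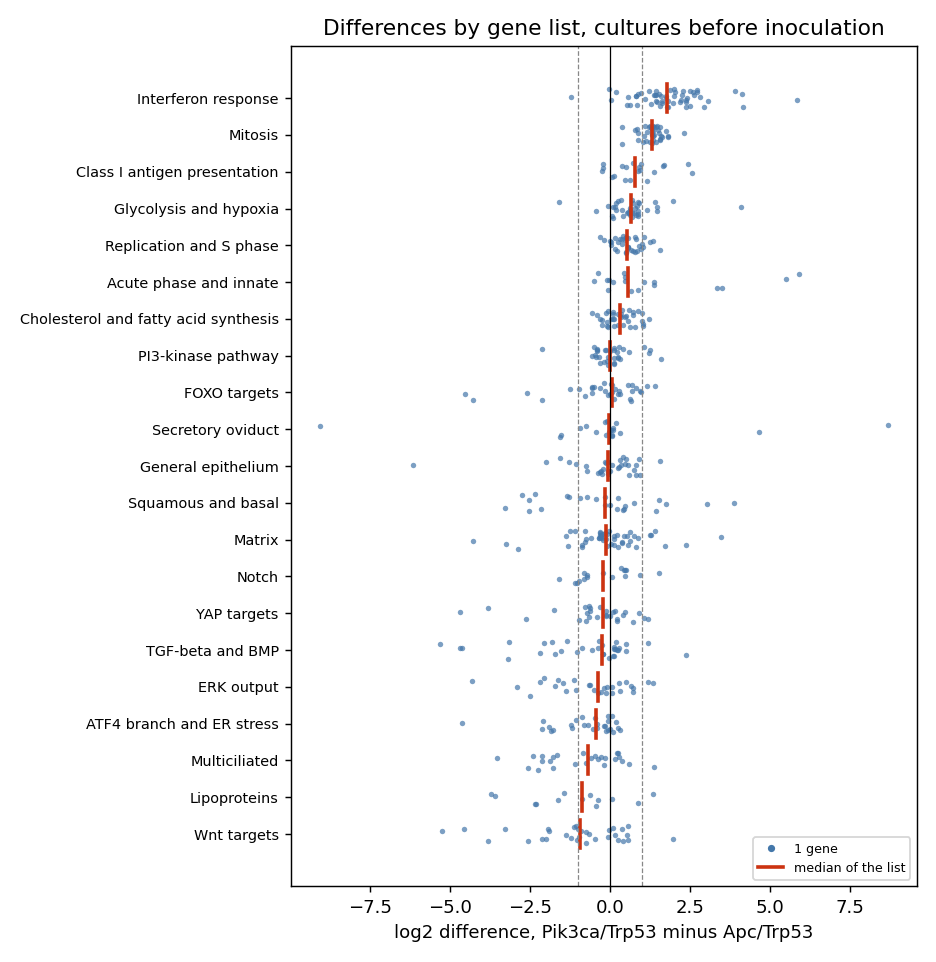
Log2 difference, Pik3ca/Trp53 minus Apc/Trp53, of each measured gene (blue) in 21 gene lists, 1 list per row, with the list's median as a red bar and dashed lines at a 2-fold difference. The medians run from 1.77 for the interferon response to -0.96 for the Wnt targets, against -0.02 over all genes.

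The interferon response was the list with the highest median difference among the 41 lists. Type I and III interferons signal through JAK kinases to a transcription factor complex that binds the interferon-stimulated response element (ISRE) in the promoters of antiviral genes. Of 57 measured genes, 45 were at least 2-fold higher in Pik3ca/Trp53 and 1 was lower (78.9% higher beside 7.66% over all genes), with a median of 1.77 and a range of -1.24 to 5.82. Several of these genes carry the ISRE letters (TTTC, 2 free bases, TTTC) on either strand of the 300-base promoter window. These letters were in 52.8% of the 53 windows of measured interferon genes, against 3.44% of all 32851 promoters. Of the 40 windows of members at least 2-fold higher 55% held them, and of the 13 windows of the other measured members 46.2%. The following stretches (RefSeq, GRCm38.p6, read 5′ to 3′ on the gene's strand) are from members with large differences, with the matched letters in capitals; matches that overlap run together.
Ifit3, chr19:34583343-34583446, plus strand: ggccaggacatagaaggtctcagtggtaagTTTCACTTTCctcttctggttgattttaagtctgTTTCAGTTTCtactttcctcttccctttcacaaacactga
Ifit1, chr19:34640755-34640843, plus strand: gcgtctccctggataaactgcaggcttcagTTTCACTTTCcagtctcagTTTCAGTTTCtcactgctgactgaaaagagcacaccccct
Isg15, chr4:156200845-156200926, minus strand: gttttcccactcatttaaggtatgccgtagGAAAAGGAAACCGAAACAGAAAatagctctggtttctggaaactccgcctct
Ddx60, chr8:61928004-61928107, plus strand: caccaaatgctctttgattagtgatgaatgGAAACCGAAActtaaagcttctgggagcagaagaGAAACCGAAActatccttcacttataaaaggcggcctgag
Apol9b, chr15:77729005-77729080, plus strand: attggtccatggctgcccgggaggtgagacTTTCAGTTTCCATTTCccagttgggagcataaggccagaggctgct
Gbp7, chr3:142530253-142530322, plus strand: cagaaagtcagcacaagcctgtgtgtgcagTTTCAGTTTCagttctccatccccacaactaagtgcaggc
These stretches are from 3 members that hold the same letters and were level or lower in Pik3ca/Trp53.
Ifitm3, chr7:141010695-141010772, minus strand: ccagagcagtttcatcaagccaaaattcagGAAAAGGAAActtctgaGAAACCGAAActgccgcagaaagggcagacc
Bst2, chr8:71537557-71537632, minus strand: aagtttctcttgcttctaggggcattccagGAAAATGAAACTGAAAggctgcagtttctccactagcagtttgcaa
Socs1, chr16:10785574-10785649, minus strand: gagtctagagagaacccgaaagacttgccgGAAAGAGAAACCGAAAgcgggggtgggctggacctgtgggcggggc

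Among those printed with large differences, Ifit3, which binds viral RNA with its paralogues, had 1.89 in Pik3ca/Trp53 and -2.26 in Apc/Trp53, 17.8-fold higher. Ifit1, which binds RNA lacking a host cap methylation, had 0.95 and -1.97 and was 7.58-fold higher. Isg15, a ubiquitin-like modifier, was 6.52-fold higher at 6.02 against 3.32. Ifit3b, a near-copy of Ifit3, was 17.5-fold higher and shares the printed promoter stretch with it, and a probe could read both transcripts. The same applies to Apol9a and Apol9b, at 6.54-fold and 8.3-fold higher. The RNA helicase-like Ddx60 was at least 11.4-fold higher, and Trim30a, a ubiquitin ligase, was below background in Apc/Trp53 and at least 11.9-fold higher.

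The higher members were mostly effectors and induced GTPases. Among sensors and signalling genes 6 of 10 were higher, with Irf7 5.66-fold (2.88 against 0.38) and the RNA helicase Dhx58 4.51-fold. Stat2 was nearly level (0.19), and Irf9 and Irf1 stood at 0.79 and 0.86. Socs1, the inhibitor of JAK kinases, was the only lower member, 2.37-fold (-1.88 against -0.63). Antiviral effectors were higher in 28 of 34, including Oasl1 (5.17-fold) and Oas3 (6.93-fold), which belong to the oligoadenylate synthetase family. Of the 11 measured interferon-induced GTPases, 10 were higher, with Gbp2 at 5.12-fold and Gbp7 at 5.63-fold. The antiviral membrane proteins Ifitm3 (7.57 against 7.55) and Bst2 (5.67 against 5.72) had nearly equal signals in both cultures.

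Class I antigen presentation followed in part. Of 20 measured genes, 6 were higher (30% beside 7.66% over all genes) and none lower, with a median of 0.78. The immunoproteasome subunits Psmb8 and Psmb9 were 5.9-fold and 5.36-fold higher, and the peptide transporter genes Tap1 and Tap2 were 3.21-fold and 3.15-fold higher. The class I chain H2-K1 stood at 0.94 (6.11 against 5.17). In the class II pathway, the invariant chain Cd74 was 3.66-fold higher (1.69 against -0.18) and H2-Ab1 at least 4.16-fold, whereas the class II transactivator Ciita stood at 0.13.

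Few interferon ligands were measurable. Ifne, an interferon of the female reproductive tract, was 4.08-fold higher (1.47 against -0.56), while Ifnb1, Ifna4 and Ifng were below background on both arrays. The receptors and kinases were level, with 0 of 9 past 2-fold. Of the 18 leukocyte markers, 7 were measured. The pan-leukocyte marker Ptprc and the myeloid markers Adgre1 and Tyrobp were below background in both cultures, whereas Itgam (1.12 and 1.63), Cd68 (1.92 and 1.62), Cd3e, Cd4, Csf1r and Fcer1g were above background in both and less than 2-fold apart. Itgam and Cd3e each rest on 1 of 2 probes. Over both probes the mean was -2.6 and -1.95 for Itgam and -2.6 and -2.85 for Cd3e. Lyz2, a lysozyme, was above background in Pik3ca/Trp53 alone and at least 2.54-fold higher. Over the list 9 of 30 probes were above background in Pik3ca/Trp53 and 8 in Apc/Trp53, and the part of leukocytes in these differences was not tested. The median level of the interferon list was 1.75 in Pik3ca/Trp53 and -0.19 in Apc/Trp53, beside -0.93 with Trp53 loss alone and 0.06 in the control, so Pik3ca/Trp53 was the high culture of the 4 before inoculation.

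**Figure D3:**
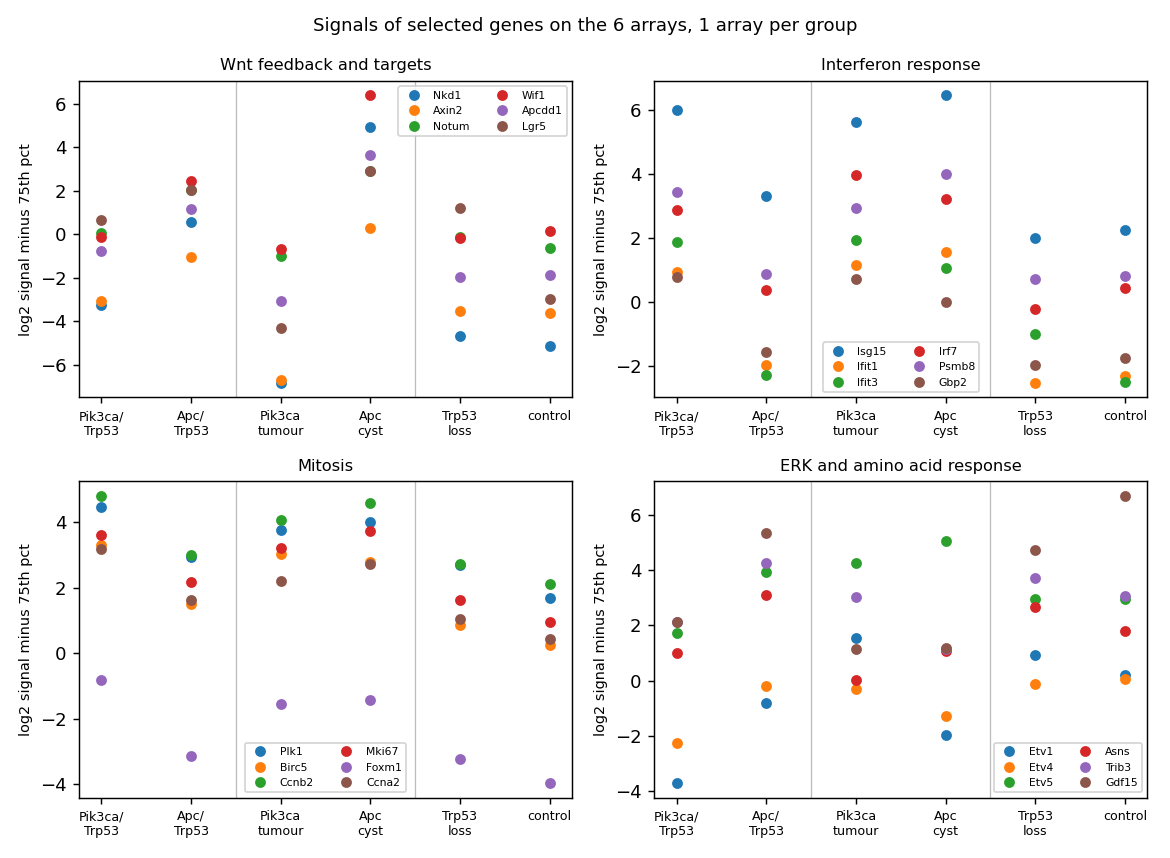
Log2 signal relative to the array's 75th percentile of selected genes on the 6 arrays, with 1 point per gene and array; the 2 cultures compared are at the left, the organoids from the adenocarcinoma and the cyst in the middle, and Trp53 loss alone and the control at the right. Nkd1 (0.56 and 4.93) and Wif1 (2.44 and 6.39) are highest in the Apc/Trp53 organoids and in those from the cyst, and Isg15 stands at 6.02 in the Pik3ca/Trp53 organoids against 3.32 in the Apc/Trp53 organoids.

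Mitosis genes were higher, and most of them past 2-fold. Of 40 measured, 34 were at least 2-fold higher (85% beside 7.66% over all genes) and none lower, with a median of 1.31 and a narrow range of 0.35 to 2.3. The cyclin Ccnb2 had 4.81 in Pik3ca/Trp53 and 3.01 in Apc/Trp53, 3.48-fold higher. Birc5, a subunit of the chromosomal passenger complex, was 3.47-fold higher, and Foxm1, the transcription factor of the mitotic programme, at least 3.01-fold. The proliferation marker Mki67 was 2.69-fold higher (3.61 against 2.18) and the kinase Plk1 2.88-fold. The smallest differences were those of Anln (0.35) and Mybl2 (0.38). A larger share of cells in mitosis and more mitotic RNA per cell cannot be told apart in these bulk samples, and this holds for every list here.

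Replication genes differed less. Of 36 measured S-phase genes 5 were higher (13.9% beside 7.66% over all genes) and none lower, with a median of 0.52. Tk1, the thymidine kinase, was 2.92-fold higher and Rrm1, the large subunit of ribonucleotide reductase, 2.51-fold. Among cell cycle inhibitors, Cdkn2d was 3.1-fold higher, Cdkn1c 2.67-fold and the phosphatase Cdkn3 3.57-fold. Cdkn1a, the main p53-dependent inhibitor, was at least 1.28-fold lower (-2.85 against -1.37, and 2.45 in the control). The median level of the mitosis list was 1.37 in Pik3ca/Trp53 and 0.19 in Apc/Trp53, against -0.11 with Trp53 loss alone and -0.69 in the control.

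Glycolysis and hypoxia genes leaned to Pik3ca/Trp53 by a small amount. The 38 measured genes had a median of 0.65, with 35 positive. Past 2-fold were 6 upward (15.8% beside 7.66% over all genes) and 1 downward (2.63% beside 7.33%). Eno2, an enolase isoform, had 1.66 against -2.42 and was 16.9-fold higher. The vasodilator peptide Adm was 3.87-fold higher, and the hypoxia targets Car9 and Egln3 were each 2.76-fold higher. Slc2a3, a glucose transporter, was 3.01-fold lower. Cholesterol and fatty acid synthesis genes were not set apart by their calls: 3 of 37 were past 2-fold (8.11% beside 7.66% over all genes), with a median of 0.31, and Acss2, an acetyl-CoA synthetase, was 2.33-fold higher.

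The amino acid response ran the other way. ATF4 is the transcription factor that induces amino acid synthesis and transport when charged tRNA falls short. Of 18 measured genes of the ATF4 branch, 9 were at least 2-fold lower in Pik3ca/Trp53 (50% beside 7.33% over all genes) and none higher, with a median of -0.97. Trib3, a pseudokinase that feeds back on the pathway, had 2.13 against 4.26 and was 4.36-fold lower. Asns, the asparagine synthetase, was 4.31-fold lower (1.0 against 3.1), Chac1, a glutathione-degrading enzyme, 3.8-fold and the mitochondrial folate enzyme Mthfd2 3.43-fold. Atf4 itself was 2.33-fold lower. The 10 genes of the unfolded protein response had a median of -0.19 and none reached 2-fold. Gdf15, a stress hormone, was 9.24-fold lower (2.13 against 5.33). On the arrays of Trp53 loss alone and the control, Trib3 stood at 3.7 and 3.05 and Asns at 2.66 and 1.78, so Pik3ca/Trp53 was the low culture.

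ERK output genes split. Of 29 measured, 2 were higher (6.9% beside 7.66% over all genes) and 11 lower (37.9% beside 7.33%), with a median of -0.38. With genes below background set at their bound, 1 was higher and 9 lower, against 7.22% and 4.81% of all genes. The median was then -0.23. The ETS factors Etv1, Etv4 and Etv5, which follow FGF and ERK signalling, were 7.58-fold, 4.17-fold and 4.61-fold lower. Etv5 had 1.71 in Pik3ca/Trp53 and 3.92 in Apc/Trp53. The AP-1 member Fosl1 was below background in Pik3ca/Trp53, at least 4.35-fold lower, and the inhibitor Spry1 was 3.31-fold lower. Dusp6, the ERK phosphatase, went against them and was 2.5-fold higher (3.93 against 2.61). Among growth factor ligands, Pdgfa was 2.83-fold lower and Fgf3, a ligand usually confined to the embryo, at least 9.34-fold lower.

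Of 33 measured TGF-beta and BMP genes, 12 were at least 2-fold lower (36.4% beside 7.33% over all genes) and 2 higher (6.06% beside 7.66%). The median was -0.25. With genes below background at their bound, 8 were lower, against 4.81% of all genes. Among those that went under 2-fold, the inhibitor Id3 was at least 1.88-fold lower and Chrdl1, a BMP antagonist, had no bound in this direction. Tgfb2 had -4.16 in Pik3ca/Trp53 and 0.53 in Apc/Trp53, at least 20.9-fold lower, and Tgfb3 was 4.57-fold lower. The inhibitor Id4 was at least 5.09-fold lower. Id2 was 2.24-fold higher. In the matrix list the collagen Col8a1 was 19.6-fold lower and the protease inhibitor Timp3 9.67-fold lower, within a median of -0.13 over 51 genes.

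The retinoid genes were divided in both directions. Of 14 measured, 5 were higher and 5 lower (35.7% each way, beside 7.66% higher and 7.33% lower over all genes). Dhrs3, which reduces retinaldehyde back to retinol, was at least 19.4-fold higher (0.88 against -4.45). The receptor Rarb was at least 5.12-fold higher and the degrading enzyme Cyp26b1 7.62-fold. Against them, Rbp4, which carries retinol in blood, was 8.29-fold lower, the degrading enzyme Cyp26a1 at least 5.32-fold and the synthesising enzyme Aldh1a1 2.28-fold. Lipoprotein genes were lower in 6 of 13 (46.2% beside 7.33% over all genes), or in 3 at their bound (4.81% over all genes). Apoc1 was 12-fold lower (-2.64 against 0.95) and Apoe at least 6.36-fold.

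The epithelial markers and most secretory markers of the labelled tissue were present on both arrays. Epcam had 3.8 in Pik3ca/Trp53 and 3.48 in Apc/Trp53, Krt8 had 6.74 and 5.92, and the Müllerian factors Pax8 (-0.09 and -0.11) and Sox17 (2.33 and 2.28) were level. Ovgp1, the glycoprotein of oviduct secretory cells, had 2.77 and 2.94, and Krt7 had 3.69 and 4.45. Wt1, also in the secretory set, was above background in Pik3ca/Trp53 (1.65) and below it in Apc/Trp53 (-7.03). Of 14 fibroblast and smooth muscle markers, 11 were below background in both cultures, Col1a1, Col3a1, Dcn and Lum among them. The other 3 were Acta2, Pdpn and Pdgfra. The smooth muscle actin Acta2 had 3.02 and 2.3 on 1 of its 3 probes, and a mean of -2.77 and -3.38 over all 3. Pdpn was 7.06-fold lower (-1.6 against 1.22). The receptor Pdgfra, on 1 of its 3 probes, was above background in Pik3ca/Trp53 alone and at least 2.56-fold higher. Of 12 endothelial markers 7 were measured, with Egfl7 (3.46 and 3.92), Vwf (-0.88 and -1.16), Esam (1.02 and -0.66) and Cdh5 (-2.02 and -0.38) above background in both. Pecam1 (-5.04 and -4.62) and Plvap (-4.34 and -4.32) were above it in Apc/Trp53 alone. The receptor Tek was below it in both, as were Tie1, Emcn, Cldn5 and Eng. Kdr, an endothelial receptor with 0.18 in Apc/Trp53, was below background in Pik3ca/Trp53 and at least 21.4-fold lower. This rests on 1 of its 2 probes, and over both the mean was -5.76 in Pik3ca/Trp53 and -3.42 in Apc/Trp53. Over the endothelial list 4 of 13 probes were above background in Pik3ca/Trp53 and 7 in Apc/Trp53, and over the fibroblast list 3 and 2 of 25. The part of other cell types in these differences was not tested.

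Differentiation markers differed gene by gene. Multiciliated genes were lower in 11 of 26 measured (42.3% beside 7.33% over all genes), with 1 higher and a median of -0.68, but most of these calls rested on signals below background. At their bound 5 were lower (4.81% over all genes), with a median of -0.06, and Ccdc39, Cfap43 and Cfap53, proteins of the cilium, had no bound in this direction. The fate regulator Ccno was at least 6.11-fold lower and Myb at least 2.74-fold, while Foxj1 stood at -0.76 (-3.4 against -2.64). Squamous and basal genes went both ways, with 5 of 25 higher (20% beside 7.66% over all genes) and 8 lower (32% beside 7.33%). Sprr2f, a cornified envelope protein, was 14.6-fold higher and Krt15 at least 8.09-fold, whereas Krt17 was 5.79-fold lower and the crosslinking enzyme Tgm1 4.47-fold. Trp63 was level at 0.2.

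The p53 targets, in cultures both labelled with Trp53 loss, had a median of -0.12. Of 34, 4 were higher (11.8% beside 7.66% over all genes) and 8 lower (23.5% beside 7.33%). At their bound 5 were lower (4.81% over all genes). Mgmt, which repairs alkylated guanine, had -1.28 in Apc/Trp53 and was below background in Pik3ca/Trp53, at least 7.78-fold lower. The death receptor Fas was 2.15-fold higher. YAP targets had a median of -0.24, with 2 of 28 higher (7.14% beside 7.66% over all genes) and 4 lower (14.3% beside 7.33%). Ankrd1, a muscle and stress response protein, was at least 3.85-fold lower. Notch genes had 1 higher and 3 lower of 17 (5.88% and 17.6%, beside 7.66% and 7.33% over all genes). The receptor Notch1 was 2.88-fold higher (0.66 against -0.87) and its ligand Jag2 2.15-fold lower. Among insulin-like growth factor binding proteins, Igfbp2 was 7.62-fold higher (-0.37 against -3.3) and Igfbp4 3.23-fold lower (-0.62 against 1.07).

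Secreted immune and defence genes were not of 1 direction either. Of 26 measured chemokines and cytokines, 5 were higher and 5 lower, with a median of -0.11. That is 19.2% each way, beside 7.66% higher and 7.33% lower over all genes. Cxcl15 was 5.57-fold higher (1.76 against -0.71), Ccl28, a mucosal chemokine, 3.26-fold and the interleukin-1 antagonist Il1rn 3.26-fold. The monocyte attractant Ccl2 was 2.58-fold lower and the macrophage growth factor Csf1 2.98-fold lower. Of 18 acute phase and innate genes, 7 were higher (38.9% beside 7.66% over all genes) and none lower, with a median of 0.56. Among the higher was Pigr, the receptor that carries antibodies across epithelium, at 2.6-fold. Of 31 oxidative stress genes, 3 were higher (9.68% beside 7.66% over all genes) and 1, Gpx3, was lower (3.23% beside 7.33%). The glutathione transferase Gsta3 was 7.25-fold higher (3.45 against 0.6).

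Several lineage genes were above background in 1 of the 2 cultures compared, though some of them also in the other cultures. Wt1, a transcription factor of mesothelium and Müllerian tract, had 1.65 in Pik3ca/Trp53 and was below background in Apc/Trp53, at least 93.5-fold higher. It was -0.14 with Trp53 loss alone and below background in the control. Gata6, an endodermal transcription factor, was at least 29.4-fold higher (-0.02 in Pik3ca/Trp53), with -1.42 for Trp53 loss alone and -2.46 in the control. The homeobox gene Hoxc4 was at least 18-fold higher (-0.73 in Pik3ca/Trp53), with -6.81 for Trp53 loss alone and -6.76 in the control. In the organoids from the adenocarcinoma Wt1 stood at -5.82, Gata6 at -6.07 and Hoxc4 at -6.87, all below background. Prss29, a protease of the implantation period, had 2.53 in Apc/Trp53 and was below background in Pik3ca/Trp53, at least 109-fold lower. Hoxd9 was at least 7.32-fold lower (-1.37 in Apc/Trp53), with -2.81 for Trp53 loss alone and -1.34 in the control. Of 16 measured Hox genes, 3 were higher and 3 lower (18.8% each way, beside 7.66% higher and 7.33% lower over all genes). In the stomach and gut list Gkn3, a gastrokine, was 15.2-fold higher (1.57 against -2.36), and among stem cell genes the chaperone Clu was 6.75-fold higher (5.92 against 3.16).

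The genes furthest apart came from several lists and from none. Among genes above background on both arrays, Wfdc18, a secreted whey acidic protein, had 4.27 in Pik3ca/Trp53 and -1.64 in Apc/Trp53, 60.2-fold higher. Gm41666 followed at 57.9-fold, then Sprr1a, a cornified envelope protein, at 25.2-fold, the ion transport regulator Fxyd4 at 22.1-fold and Unc5cl at 19.5-fold. AA467197, Phf11a and Bcl2l15 were 16.7-fold, 16.6-fold and 16.5-fold higher. In the other direction Krt23, a type I keratin, had -3.69 against 2.46 and was 71.3-fold lower. Sema7a, a membrane semaphorin, was 16.7-fold lower, Gpx3, a secreted glutathione peroxidase, 13.1-fold, Sema6a at least 11.9-fold and the proton pump subunit Atp6v0d2 at least 8.16-fold. Of genes measured in Pik3ca/Trp53 alone, Kap, named for its androgen regulation in kidney, had the largest bound, at least 186-fold, with Lyz1, a lysozyme, at least 30.8-fold and Lyl1, a helix-loop-helix factor, at least 19.8-fold. Of those in Apc/Trp53 alone, Rnf138rt1 was at least 87.7-fold lower, the potassium channel genes Kcnj1 and Kcne2 at least 50.0-fold and 37.2-fold, and the serpin Serpinb10 at least 48.9-fold. Here "alone" refers to the 2 cultures compared. With Trp53 loss alone Kcnj1 had 0.39, Kcne2 -0.43 and Serpinb10 -1.79, and Kap had -1.07 in the control. Rnf138rt1 stood at -6.72 with Trp53 loss alone and -6.51 in the control.

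**Figure D4:**
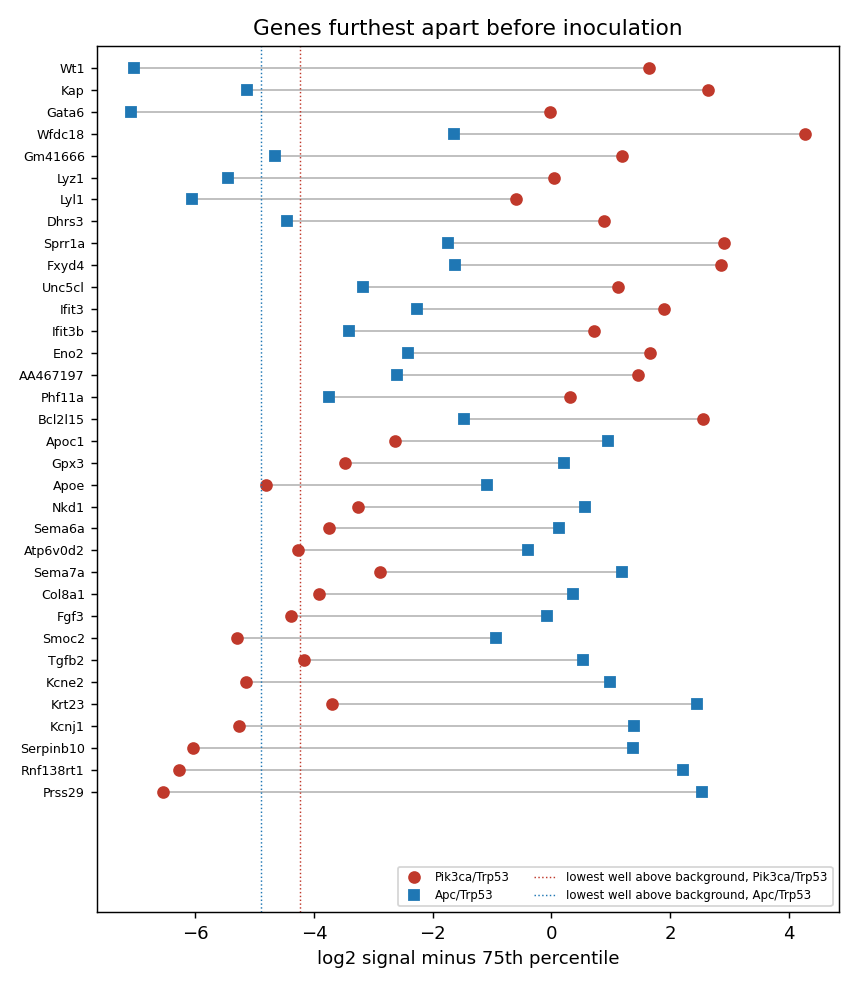
Log2 signal relative to the array's 75th percentile in Pik3ca/Trp53 (red circles) and Apc/Trp53 organoids (blue squares) for the 12 largest differences each way among genes above background on both arrays and the 5 largest bounds each way among genes above background on 1 array; dotted lines mark the lowest signal well above background on each array. Among genes measured on both, Wfdc18 is furthest apart upward (60.2-fold) and Krt23 downward (71.3-fold).

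The same genotypes were measured again as organoids recovered from the lesions, on 2 arrays that share no hybridisation with the pair before inoculation but descend from the same cultures. There 2558 of 15289 genes were at least 2-fold higher in the Pik3ca/Trp53 organoids from the adenocarcinoma than in the Apc/Trp53 organoids from the cyst (16.7%) and 2427 were lower (15.9%). Of the 965 genes higher before inoculation and measured in both stages, 297 (30.8%) were again 2-fold higher, beside 13.6% of all genes measured in both, and 232 (24.0%) were 2-fold lower, beside 14.1%. Of the 917 lower genes, 380 (41.4%) were lower again and 251 (27.4%) were higher.

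The lists differed in this. Of all genes measured in both stages, 13.6% were 2-fold higher in the lesion-derived pair and 14.1% were lower. Wnt targets had a median of -1.77 in the lesion-derived pair, with 21 of 32 lower, and Nkd1 reached -11.76 (-6.83 against 4.93), Lgr5 -7.18 and Wif1 -7.03. The interferon list had a median of -0.44, with 3 of 56 higher and 14 lower, and its median level was 1.75 in the adenocarcinoma-derived and 1.94 in the cyst-derived organoids. Mitosis genes had a median of -0.15, with none of 40 past 2-fold. ERK output had a median of 1.6, with 17 of 28 higher, and the ATF4 branch 0.3. Squamous and basal genes, at -0.17 before, had a median of 2.95, with 16 of 24 higher. Wfdc18 (6.44) and Eno2 (4.3) were high in Pik3ca/Trp53 in both stages, and Prss29 (-13.3) in Apc/Trp53 in both.

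**Figure D5:**
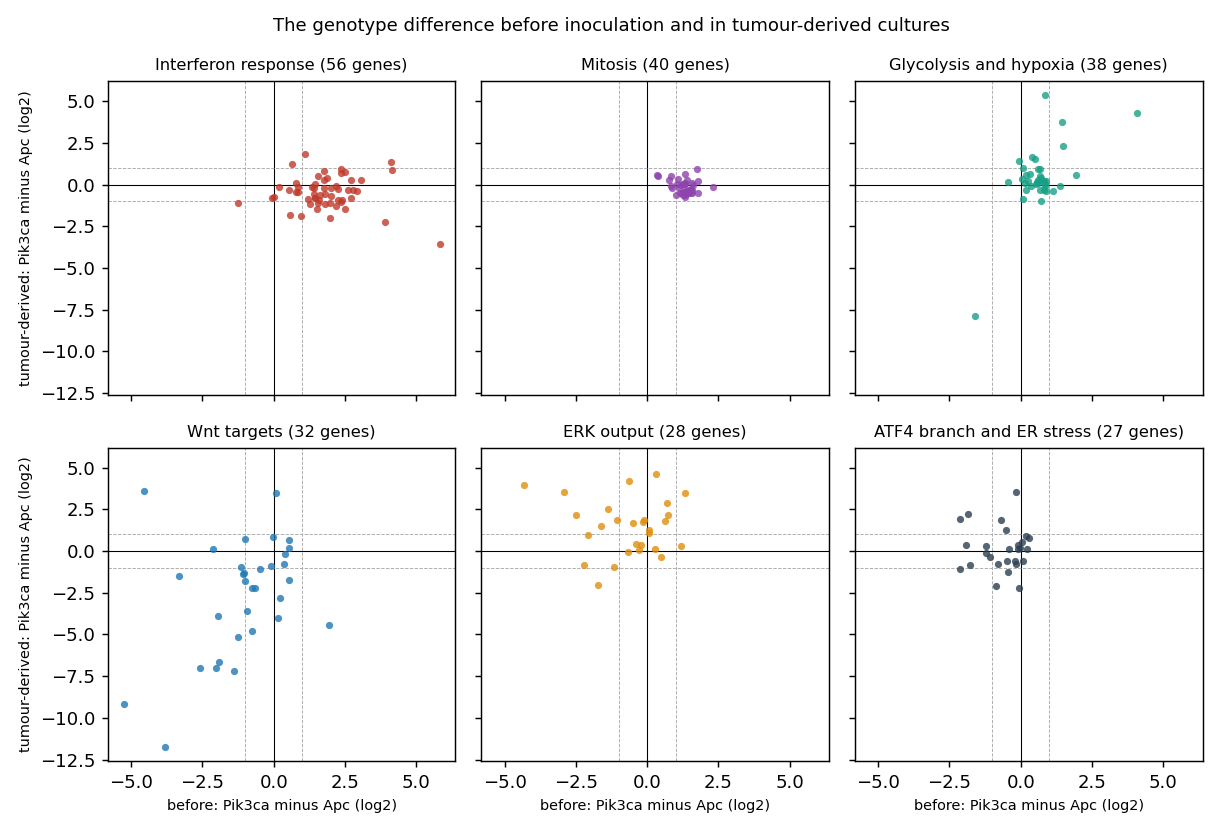
Each point is 1 gene of the named list, with its log2 difference (Pik3ca/Trp53 minus Apc/Trp53) before inoculation on the horizontal axis and in the lesion-derived organoids on the vertical axis; dashed lines mark 2-fold. Interferon and mitosis genes lie to the right before inoculation. On the vertical axis mitosis genes lie around 0 (median -0.15) and Wnt targets low (median -1.77). Interferon genes have a median of -0.44 there, with 3 of 56 past 2-fold upward and 14 downward.

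A fit over the 4 arrays, with genotype and stage as terms and 1 residual degree of freedom, estimated the genotype difference averaged over both stages. With limma and Benjamini-Hochberg adjustment it called 0 of 15679 genes higher and 0 lower (0% in either direction), with a smallest adjusted p of 0.843, and 678 genes (4.32%) had an unadjusted p below 0.05. Across the 4 arrays Wfdc18 averaged 6.18 higher (SE 0.34) and did not pass the adjustment (adjusted p = 0.843).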

How the data were processed

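RNA of 6 organoid cultures, 1 per group, was hybridised to 1-colour Agilent arrays of 56605 probes. Per the file headers and the submitters' processing notes, the authors deposited background-subtracted processed intensity values from Feature Extraction 11.0.1.1. The authors also deposited a table of log2 values for 2047 probes, per its values on a scale whose differences match the scanner files (slope 1.0), with centring not stated (column medians 0.15 for Pik3ca/Trp53 and -0.32 for Apc/Trp53). The intensities were converted to log2, the 75th percentile over all probe spots of the array was subtracted, outlier-flagged spots were dropped, and probes of a gene that were well above background in either culture were averaged. Lesion-derived signals use the same rule on their own pair. RefSeq accessions named 34566 probes (23787 genes); the other 22039 are not used here. A difference of 2-fold or more is counted. The median SD between probes of 1 gene was 0.148 log2 units over 5266 genes with several probes. The genotype fit used limma 3.58.1 in R 4.3.3. It was also run on simulated data in which the genotype difference was the same in both stages. That run does not cover genes whose difference changed between the stages. The number of arrays limits the precision. The 1 residual degree of freedom of the fit is how far the genotype difference changed between the stages. Any p-value is set against that change, pooled over genes, and does not measure the spread between cultures of 1 genotype.

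The genes, lists and thresholds were chosen with earlier results of these data known. Named genes are the altered genes, the 12 largest differences each way where both cultures were above background, the 5 largest bounds each way where a single culture was, and, per list, the 8 largest differences, members that oppose the list by 2-fold, and members whose role is described. Alternatives changed the scaling, background correction, probe filter, handling of dim signals, probe choice and threshold. Promoter windows are from RefSeq, GRCm38.p6, matched by symbol; 44 of the 57 measured interferon genes had one. Some genes are not reported here.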

Additional observations from a re-analysis of the deposited data

Results flagged for a closer look

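Some genes were at least 4-fold apart in opposite directions before inoculation and in the lesion-derived organoids. Of the genes chosen by the naming rule, 57 were 2-fold and 26 were 4-fold apart in opposite directions. With signals below background at their bound on either pair, 46 and 18 remained so. The naming rule picks genes partly for large differences before inoculation, so these counts do not set the named genes apart from others. Over all 14049 genes measured in both stages, 232 were 2-fold higher before and 2-fold lower in the lesion-derived pair. The reverse held for 251. The difference between the stages was not tested, with 1 array per group. The values that follow are Pik3ca/Trp53 minus Apc/Trp53 on the log2 scale in the lesion-derived organoids.

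Genes lower in Pik3ca/Trp53 before inoculation were higher in the organoids from the adenocarcinoma. Epithelial genes were Krt5 at 10.24, Krt6b at 6.18, Krt17 at 5.66 and the crosslinking enzyme Tgm1 at 4.28. The fate regulator of multiciliated cells Ccno was at 5.27 and the mesothelial marker Upk3b at 3.34. Signalling genes were Fosl1 at 3.97, Etv1 at 3.52, Spry4 at 2.15, Ankrd1 at 6.01, Tgfb3 at 3.16 and Irs2 at 2.32. Metabolic and other genes were Fabp4 at 7.8, the steroid enzyme Hsd11b1 at 5.63, Mgmt at 4.5, the growth factor Csf2 at 4.51, Apoe at 3.86, Cyp26a1 at 3.6 and Timp3 at 3.05. Before inoculation several of these had bounds under 4-fold, at -1.24 for Krt5, -1.26 for Krt6b, -1.95 for Ankrd1, -0.34 for Spry4, -0.15 for Csf2 and -0.11 for Fabp4, and in the lesion-derived pair Upk3b had a bound of 1.36.

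Genes higher in Pik3ca/Trp53 before inoculation were lower in the organoids from the adenocarcinoma. Cxcl15 was at -8.95, Igfbp2 at -7.4, Lyz1 at -4.5, Trim30a at -3.58, Gkn3 at -3.12, Gata6 at -2.28 (a bound of -0.77) and Ddx60 at -2.25. Of the lists, class II antigen presentation had a median of -1.41 in the lesion-derived pair against 0.79 before, over 5 genes, and lipoproteins 1.71 against -0.89.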

How the results depend on the processing

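No paired analysis was possible because each group has 1 array and the labels give no replicate numbers. The counts of 1106 higher and 1058 lower genes stayed within 1.5 times of these values under median scaling, quantile normalization, outlier spots kept and the brightest probe of each gene. With normexp background correction they were 527 and 378. That correction was chosen after seeing the data, on median signals, in place of one planned on mean signals, which was not run because the files give no such column. With probes above background on both arrays 550 genes were lower, and 694 when the signals below background were set to the lowest signal above it, so the higher genes made up 59.3% and 60.1% of the calls against 51.1%. With all named probes 1964 were higher (64.5% of calls), and the median of all genes was 0.28. The deposited table, with 1296 named genes, gave 238 higher and 237 lower. A 4-fold threshold gave 377 and 343. With probes above background on all 4 arrays, 162 genes were lower in both stages, 123 higher before and lower after, and 119 lower before and higher after.

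The genotype fit called 0 genes under each alternative run, with a smallest adjusted p of 0.179 to 0.851 over those that kept all 4 arrays. Leaving out each array in turn, which also meant dropping the stage term, gave 0 calls each time and a smallest adjusted p of 0.117 to 1.0.

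Of 41 list medians, 19 turned their sign under some setting, 17 of which lay under 0.5 from 0. The other 2 were multiciliated genes, at 0.21 with all named probes, and mesenchymal genes, at 0.57 with all named probes and 0.33 in the deposited table. The interferon median ranged from 1.41 to 1.79 and the mitosis median from 1.07 to 1.34. Of the genes chosen by the naming rule, 243 of 339 were 2-fold apart, of which 10 turned their sign under some setting and 85 went under 2-fold. Of the 96 closer than 2-fold, 15 turned their sign. When signals below background were raised in this way, the 2-fold genes that reversed were Eda2r (0.43), Il11 (0.29), Fgfr4 (0.56), Chrdl1 (0.06), Prss28 (0.01), Ccdc39 (0.06), Cfap43 (0.16), Cfap53 (0.4) and Cldn11 (0.05). Spred2 was at -0.06 with probes above background on both arrays and with its brightest probe. The cause was not tested. Signals near the background limit restrict a gene to a bound.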

Other observations

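Over the chromosomes, the median difference between the cultures before inoculation lay between -0.07 (chromosome 16) and 0.09 (chromosome 3). In the lesion-derived pair chromosome 13 had a median of 0.45 over 541 genes and chromosome 14 of 0.26 over 481 genes.

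The letters of the interferon-stimulated response element were in the promoter windows of 72 of the 856 higher genes that had a window (8.41%), in 32 of 814 lower genes (3.93%) and in 407 of 11483 measured genes (3.54%). Of those 72 higher genes, 19 are in the interferon list.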
